A study of Macaca mulatta with 5 samples.

Results

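The insulin-like growth factor (IGF) genes followed here are the ligands IGF1 and IGF2, the receptors IGF1R and IGF2R, and the binding proteins IGFBP2 to IGFBP7. They were chosen by name from the annotation of the Affymetrix rhesus expression array, where all 11 genes named IGF1, IGF2, IGF1R, IGF2R or IGFBP1 to IGFBP7 had a probe set, and the 10 brightest by mean signal over the arrays were kept. They are 10 of 14132 named genes and are read by 21 of 52865 probe sets. The dimmest gene kept, IGFBP5, had a mean signal of 270, and IGFBP1, which ranked eleventh and was left out, had 46.1. Total RNA of rhesus macaque embryonic stem cells of line 366.4 was profiled at 5 stages of a culture directed towards serotonin neurons, with 1 array for each stage. ESC were undifferentiated cells of passage 13 on a mouse embryonic fibroblast layer. EB were embryoid bodies collected after 6 to 8 days, and N1 were neurospheres grown for 7 to 9 days in DMEM/F12 with N2 supplement, whose standard formulation contains insulin. N2 cells were expanded for 7 to 9 days in the same medium with FGF4, and N3 cells were matured without FGF4 in wells of reduced growth factor. All stages came from this single line.

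IGF1 and IGF2 are secreted peptides related to insulin. Both activate IGF1R, a receptor tyrosine kinase that signals through adaptor proteins and phosphoinositide 3-kinase to promote growth and survival, including that of neural progenitors. IGF2R, the mannose 6-phosphate receptor, takes up IGF2 for breakdown in lysosomes. The binding proteins hold the peptides outside cells, prolong their life and limit or aid their access to the receptor, and proteases release the peptides by cutting them.

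Signals are array intensities rescaled to a common trimmed mean of 500 on each array. Values below 100 were set to 100 before ratios were taken, so a ratio with 1 side under this floor is a bound and is written "at least". With 1 array for each stage there was no replicate, no test and no p-value, and a gene was counted as higher or lower when it differed by 2-fold or more. The SD between the pair of brightest probe sets of the same gene, a technical spread that is not a replicate spread, lay between 0.433 and 0.818 on the log2 scale in the 5 comparisons. Levels of different probe sets are not compared, and in the sums of marker genes given below the brightest probe sets weigh most. The stem cell factor POU5F1 had a signal of 14.7 in N3 and 28659 in ESC, and the neuronal microtubule gene DCX 10621 in N3 and 186 in ESC. Of 8 pluripotency genes measured, 5 were lower in N3 than in ESC, and 1, NANOG, was higher (2158 in N3 and 1048 in ESC). Of 8 neuron genes, 6 were higher and 0 lower, with SYT1 short of 2-fold at 2988 in N3 and 4182 in ESC. Among all measured genes, 17.2% were higher and 16.5% lower. TPH2, the enzyme that makes serotonin in neurons, was below the floor on every array, at most 16.2 in EB and 5.37 in N3. In RNA from whole cultures, fewer cells of a type and less RNA per cell cannot be told apart.

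Both ligand genes were below the floor in ESC and above it at every later stage. The brightest IGF1 probe set, MmugDNA.4061.1.S1_at, had signals of 86.8 at ESC, 278 at EB, 1242 at N1, 2827 at N2 and 1479 at N3. IGF1 was thus at its highest on the N2 array, from the cells grown with FGF4. The part of FGF4 in this was not tested. It was at least 2.78-fold higher in EB than in ESC, 4.47-fold higher in N1 than in EB and 2.28-fold higher in N2 than in N1. The ratio of N3 to N2 was -0.93 on the log2 scale, short of 2-fold. A second IGF1 probe set, MmuSTS.628.1.S1_at, gave 14.3 at ESC, 159 at EB, 543 at N1, 1183 at N2 and 529 at N3. Its stages fell in nearly the same order, and it was 2.24-fold lower in N3 than in N2. The other IGF1 probe sets, MmugDNA.38092.1.S1_at and MmugDNA.7733.1.S1_at, stayed below the floor on all arrays.

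IGF2, an imprinted fetal growth factor, was read by a single probe set, with signals of 70.3 at ESC, 1301 at EB, 1878 at N1, 697 at N2 and 1061 at N3. It was at least 13.0-fold higher in EB than in ESC, and 0.82% of measured genes had a ratio at or above this bound. IGF2 was 2.69-fold lower in N2 than in N1, the step at which IGF1 was 2.28-fold higher. In N3 against ESC, IGF1 was at least 14.8-fold and IGF2 at least 10.6-fold higher.

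**Figure D1:**
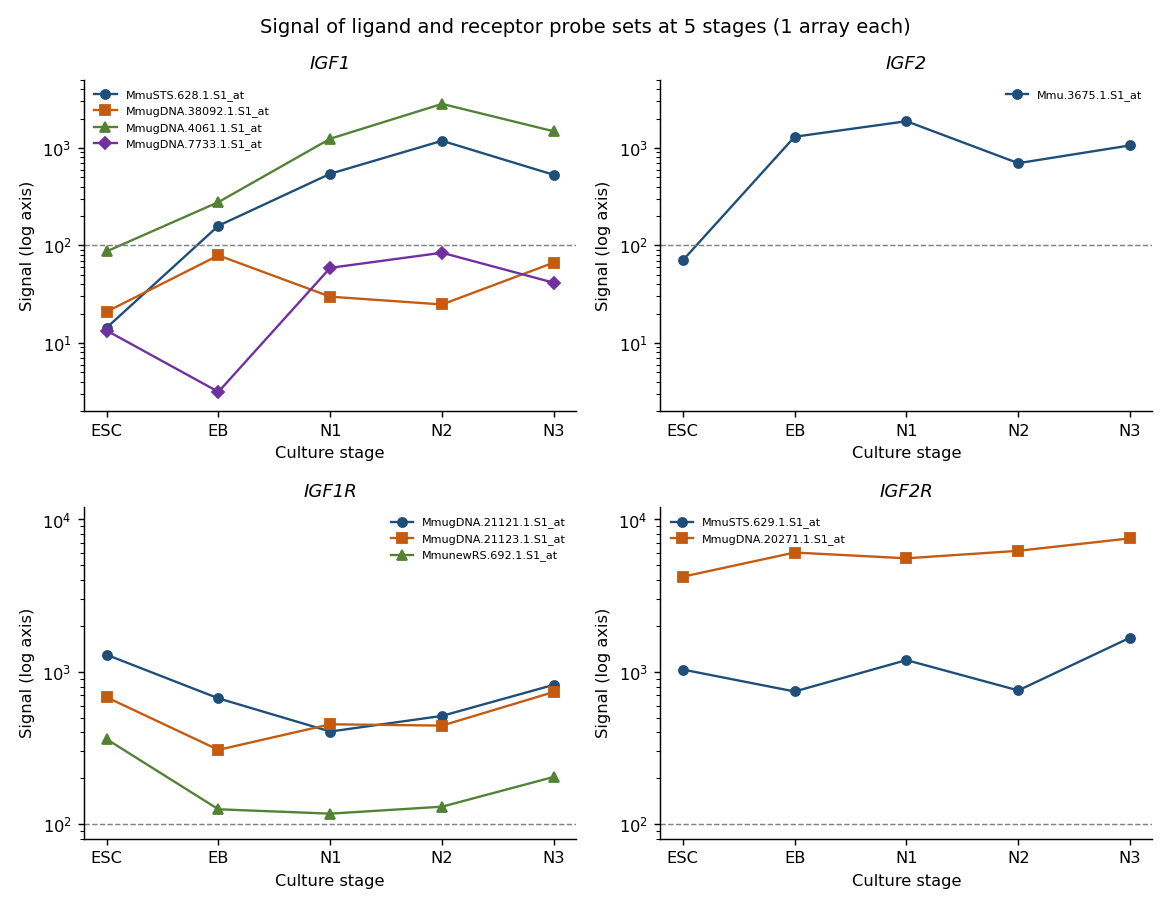
Signal (log axis) of every probe set of IGF1, IGF2, IGF1R and IGF2R at the 5 stages, 1 array each, with the dashed line at the floor of 100. IGF1 peaked in N2 at 2827 and IGF2 in N1 at 1878, while both were below the floor in ESC.

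The receptor genes varied less than the ligands. For IGF1R, MmugDNA.21121.1.S1_at had 1293 at ESC, 669 at EB, 405 at N1, 513 at N2 and 821 at N3. MmugDNA.21123.1.S1_at had 680 at ESC, 307 at EB, 452 at N1, 443 at N2 and 737 at N3. MmunewRS.692.1.S1_at had 361 at ESC, 125 at EB, 117 at N1, 130 at N2 and 204 at N3. All 3 IGF1R probe sets were lower in EB than in ESC, by log2 ratios between -1.53 and -0.95, and all 3 were higher in N3 than in N2, by 0.65 to 0.74. They differed in sign for N1 against EB, at -0.72 to 0.56, and for N3 against ESC, at -0.82 to 0.12.

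IGF2R was well above the floor on every array with both of its probe sets. MmugDNA.20271.1.S1_at had 4210 at ESC, 6068 at EB, 5560 at N1, 6227 at N2 and 7519 at N3. MmuSTS.629.1.S1_at had 1034 at ESC, 742 at EB, 1193 at N1, 754 at N2 and 1674 at N3. Both were highest in N3, with log2 ratios of 0.84 and 0.70 for N3 against ESC, but their log2 ratios had opposite signs in the 3 earlier steps. The brighter probe set varied by 1.79-fold over the 5 stages, less than any other gene kept here did on the probe set that stands for it.

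Among the binding proteins, IGFBP2 and IGFBP3 went opposite ways when stem cells became embryoid bodies. IGFBP2, a binding protein abundant in fetal tissues and brain, had 18381 at ESC, 3613 at EB, 6841 at N1, 7845 at N2 and 21603 at N3. It was high in undifferentiated and in matured cells and lower at the 3 stages between. The fold differences were 5.09-fold lower in EB than in ESC and 2.75-fold higher in N3 than in N2, whereas N3 against ESC gave 1.18-fold. IGFBP3, the main carrier of IGFs in blood, had 1322 at ESC, 10067 at EB, 10753 at N1, 8638 at N2 and 8766 at N3. It was 7.61-fold higher in EB than in ESC, and each later step had a log2 ratio between -0.32 and 0.10.

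IGFBP4, which mainly restrains IGF action, had 1459 at ESC, 3301 at EB, 2959 at N1, 1207 at N2 and 2174 at N3. It was 2.26-fold higher in EB than in ESC and 2.45-fold lower in N2 than in N1. IGFBP6, which prefers IGF2 to IGF1, had 855 at ESC, 86.8 at EB, 189 at N1, 131 at N2 and 149 at N3. Its level in ESC exceeded every later stage, with EB at least 8.55-fold lower and N3 5.75-fold lower. IGFBP5, a binding protein that also attaches to matrix, had 477 at ESC, 55.4 at EB, 454 at N1, 70.7 at N2 and 293 at N3. It alternated from stage to stage, below the floor in EB and N2 and above it in the other 3. IGFBP1, the gene left out, had 58.5 at ESC, 127 at EB, 12.4 at N1, 8.95 at N2 and 23.9 at N3, so EB was the only array where it passed the floor.

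**Figure D2:**
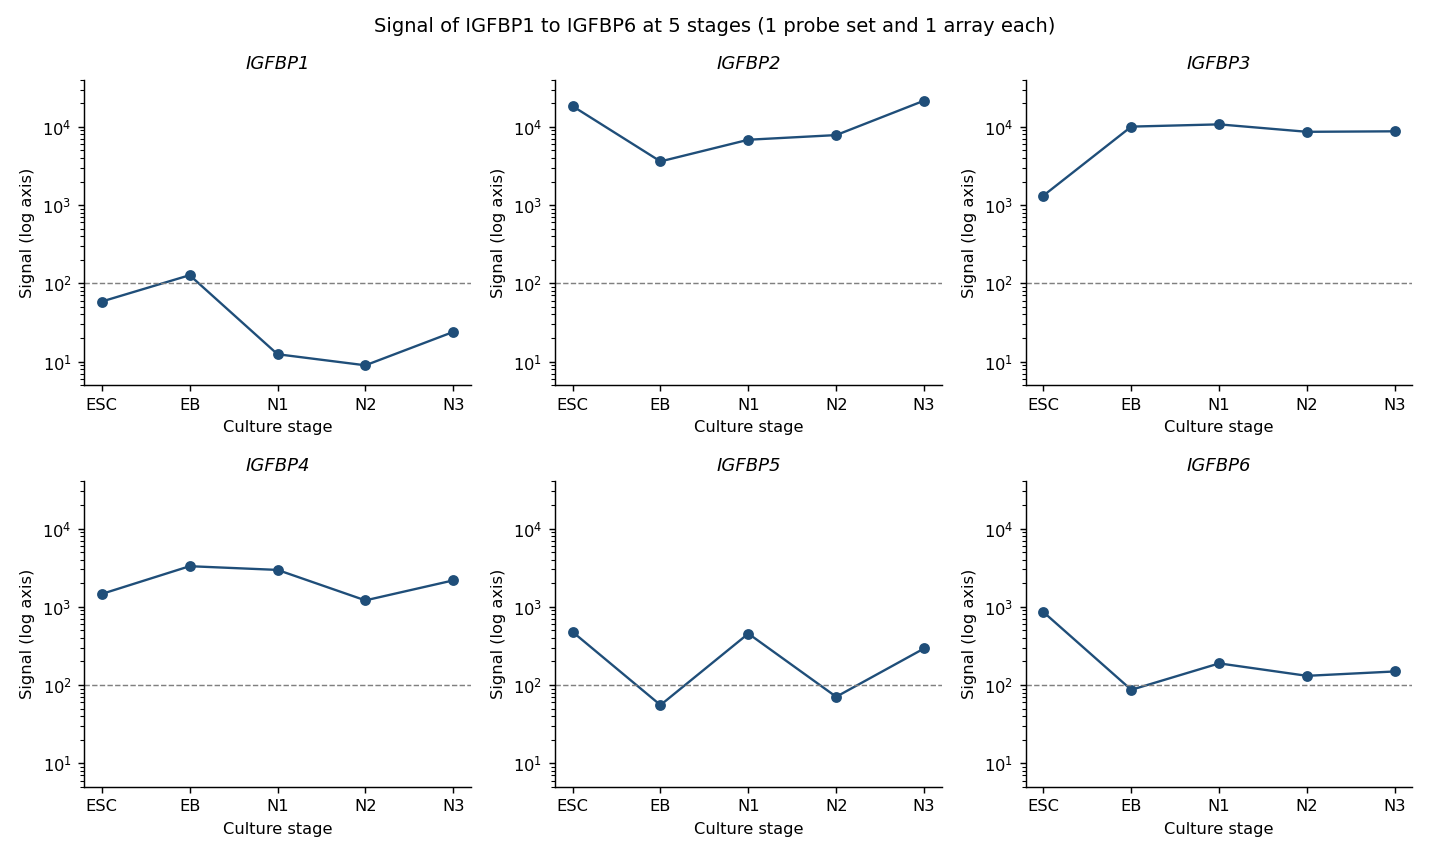
Signal (log axis) of IGFBP1 to IGFBP6 at the 5 stages, 1 probe set and 1 array each, with the dashed line at the floor of 100. IGFBP2 dipped to 3613 in EB and stood at 21603 in N3, IGFBP3 was 10067 in EB against 1322 in ESC, and IGFBP5 alternated.

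IGFBP7 binds IGFs only weakly, and its 6 probe sets did not give a single profile. MmugDNA.10728.1.S1_at, the brightest, had 2026 at ESC, 4458 at EB, 4380 at N1, 2435 at N2 and 1856 at N3. A probe set of the cross-binding type (suffix _s_at) followed it, with 1581 at ESC, 3287 at EB, 3499 at N1, 1784 at N2 and 1437 at N3. This pair was highest in EB and N1. MmugDNA.20278.1.S1_at had instead 406 at ESC, 338 at EB, 492 at N1, 2100 at N2 and 2497 at N3, so that it was 4.26-fold higher in N2 than in N1. At the same step MmugDNA.32638.1.S1_at was 9.04-fold lower, with 712 at ESC, 351 at EB, 1084 at N1, 120 at N2 and 178 at N3. MmugDNA.9577.1.S1_s_at was 4.73-fold lower at that step and had 1404 at ESC, 457 at EB, 1329 at N1, 281 at N2 and 358 at N3. MmugDNA.5502.1.S1_at was below the floor throughout. The log2 ratios of N2 against N1 thus spanned -3.18 to 2.09 within the gene. The count of IGFBP7 as higher in EB than in ESC rests on the brightest pair, since the remaining 3 above the floor gave log2 ratios of -0.27, -1.02 and -1.62. Which transcripts the probe sets read was not tested.

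**Figure D3:**
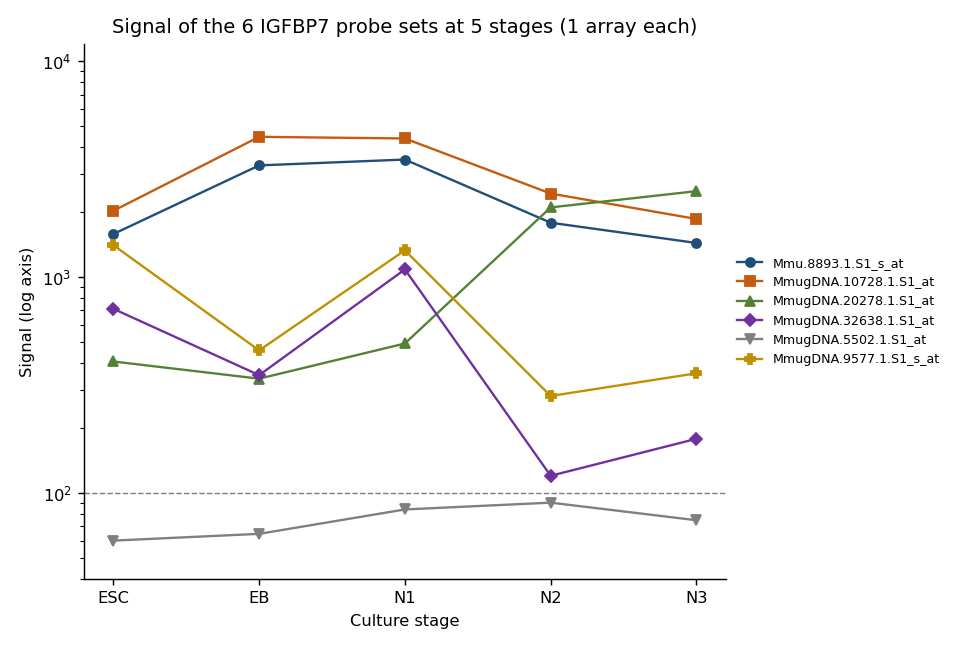
Signal (log axis) of the 6 IGFBP7 probe sets at the 5 stages, 1 array each, with the dashed line at the floor of 100. Between N1 and N2 a probe set went to 2100 in N2, against 492 in N1, while another went to 120 in N2, against 1084 in N1.

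Counted over the 10 genes, EB against ESC held the most differences among the steps. There 5 were at least 2-fold higher (IGF1, IGF2, IGFBP3, IGFBP4 and IGFBP7), beside 12.1% of the 10980 measured genes, and 3 were lower (IGFBP2, IGFBP5 and IGFBP6), beside 11.8%. In N1 against EB, 2 were higher (IGF1, and IGFBP5 by at least 4.54-fold), beside 5.18% of 10337 genes, and 0 were lower, beside 2.2%. In N2 against N1, 1 was higher (IGF1), beside 5.07% of 10554 genes, and 3 were lower (IGF2, IGFBP4 and IGFBP5), beside 6.53%. In N3 against N2, 2 were higher (IGFBP2 and IGFBP5), beside 4.78% of 10403 genes, and 0 were lower, beside 2.2%. Across the whole culture, N3 against ESC, 3 were higher (IGF1, IGF2 and IGFBP3), beside 17.2% of 11233 genes, and 1 was lower (IGFBP6), beside 16.5%. The median log2 ratio of the 10 genes was 0.83 in EB against ESC, 0.31 in N1 against EB, -0.42 in N2 against N1, 0.44 in N3 against N2 and 0.40 in N3 against ESC. Over all measured genes it lay between -0.14 and -0.02 in the 5 comparisons. Between their highest and lowest stage, 6 of the 10 genes spanned 4-fold or more, beside 15.2% of 11642 genes above the floor on some array. The 10 genes were kept for brightness, and genes near the floor cannot span 4-fold, so these shares are not like for like.

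**Figure D4:**
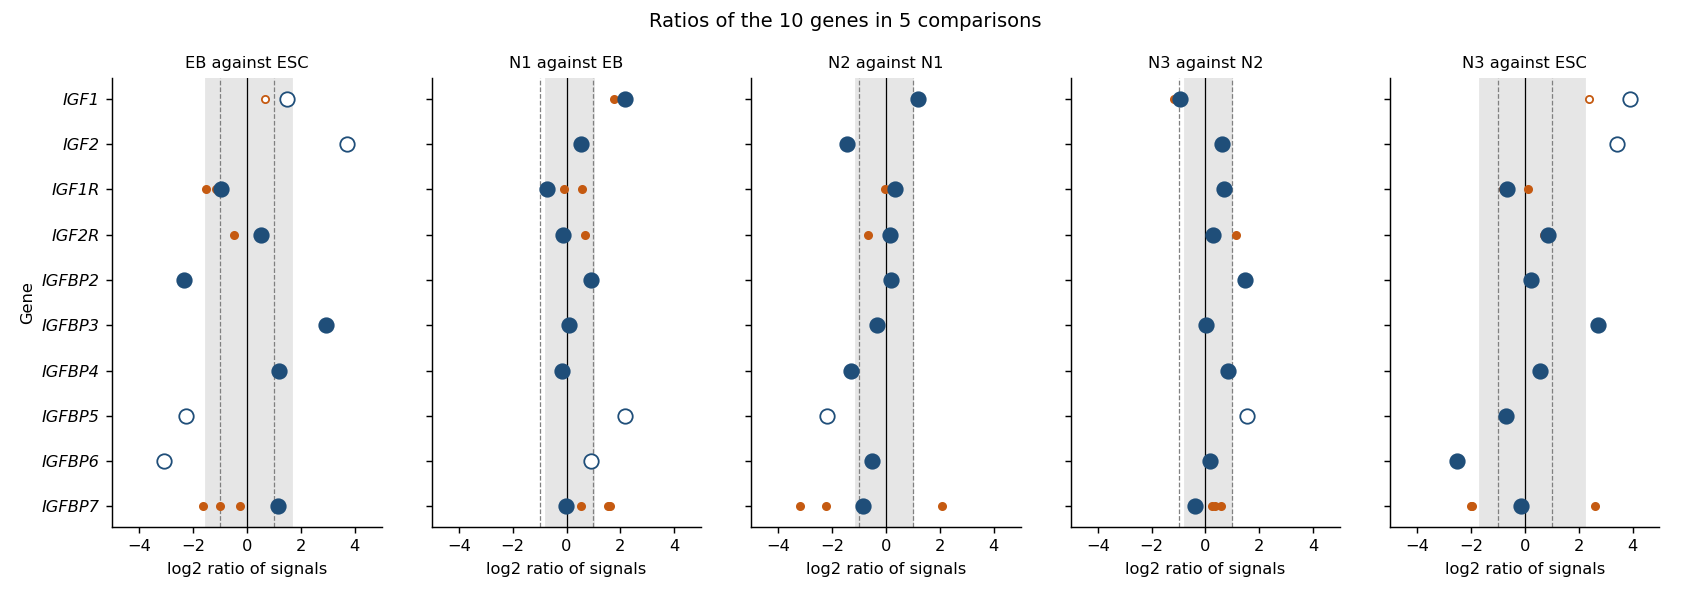
Log2 ratio (later over earlier stage) of the 10 genes in the 5 comparisons. Large blue points are the brightest probe set and small orange points the others, open points are bounds, the grey band runs from percentile 5 to percentile 95 of all measured genes, and dashed lines mark 2-fold. IGF2 (at least 13.0-fold) lay far right of the band in EB against ESC, where IGFBP6 (at least 8.55-fold lower) lay far left.

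The arrays differed in the balance of signal between the 3' and 5' ends of control transcripts, and IGFBP5 was low where the imbalance was largest. The 3' to 5' signal ratio of the actin control was 1.73 at ESC, 15.2 at EB, 5.43 at N1, 25.2 at N2 and 8.63 at N3. For GAPDH it was 1.94 at ESC, 2.78 at EB, 1.69 at N1, 7.1 at N2 and 2.1 at N3. EB and N2, the arrays with IGFBP5 at 55.4 and 70.7, had the highest ratios for both controls. MmugDNA.9577.1.S1_s_at of IGFBP7 was low in EB (457) and N2 (281) but also in N3 (358), where the ratios were smaller. MmuSTS.629.1.S1_at of IGF2R was lowest in EB (742) and N2 (754), whereas the brighter IGF2R probe set was lowest in ESC. Probe sets of the IGF2 mRNA-binding protein genes were lowest in EB and N2 as well, with MmugDNA.24712.1.S1_at of IGF2BP1 at 498 at ESC, 150 at EB, 522 at N1, 117 at N2 and 235 at N3, and MmugDNA.36832.1.S1_at of IGF2BP3 at 990 at ESC, 218 at EB, 853 at N1, 178 at N2 and 384 at N3. Other probe sets of both genes did not alternate in this way. MmugDNA.8547.1.S1_at of IGF2BP1 had 492 at ESC, 222 at EB, 184 at N1, 118 at N2 and 128 at N3, and MmugDNA.31012.1.S1_at of IGF2BP3 stayed between 6908 and 9330. Of 11642 genes, 35 alternated by 2-fold or more at all 4 steps in the direction of IGFBP5, and 1 in the opposite direction. The part of RNA quality in these values was not tested. When the EB and N2 arrays were left out, a choice made after the data were seen, IGFBP5 differed by 1.05-fold between N1 and ESC (454 and 477) and by 1.55-fold between N3 and N1 (293 and 454). In N1 against ESC, 5 genes were higher, beside 13.3% of 11168 genes, and 3 lower, beside 11%, with IGF1R (3.19-fold lower, but 1.5-fold on MmugDNA.21123.1.S1_at) in place of IGFBP5. In N3 against N1, 2 were higher (IGFBP2 by 3.16-fold and IGF1R by 2.03-fold), beside 8.42% of 10653 genes, and 1 was lower (IGFBP7), beside 6.68%. The other IGF1R probe sets gave 1.63-fold and 1.74-fold there, short of the threshold, and those of IGFBP7 had log2 ratios from -2.60 to 2.34, with MmugDNA.20278.1.S1_at 5.07-fold higher. On that contrast IGF1 differed by 1.19-fold, with 1479 in N3 and 1242 in N1, so its peak rests on the N2 array. IGF2 was 1.77-fold lower there (1061 in N3 and 1878 in N1) and IGFBP4 1.36-fold lower (2174 in N3 and 2959 in N1), both short of 2-fold. These genes were counted as lower only with the N2 array.

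**Figure D5:**
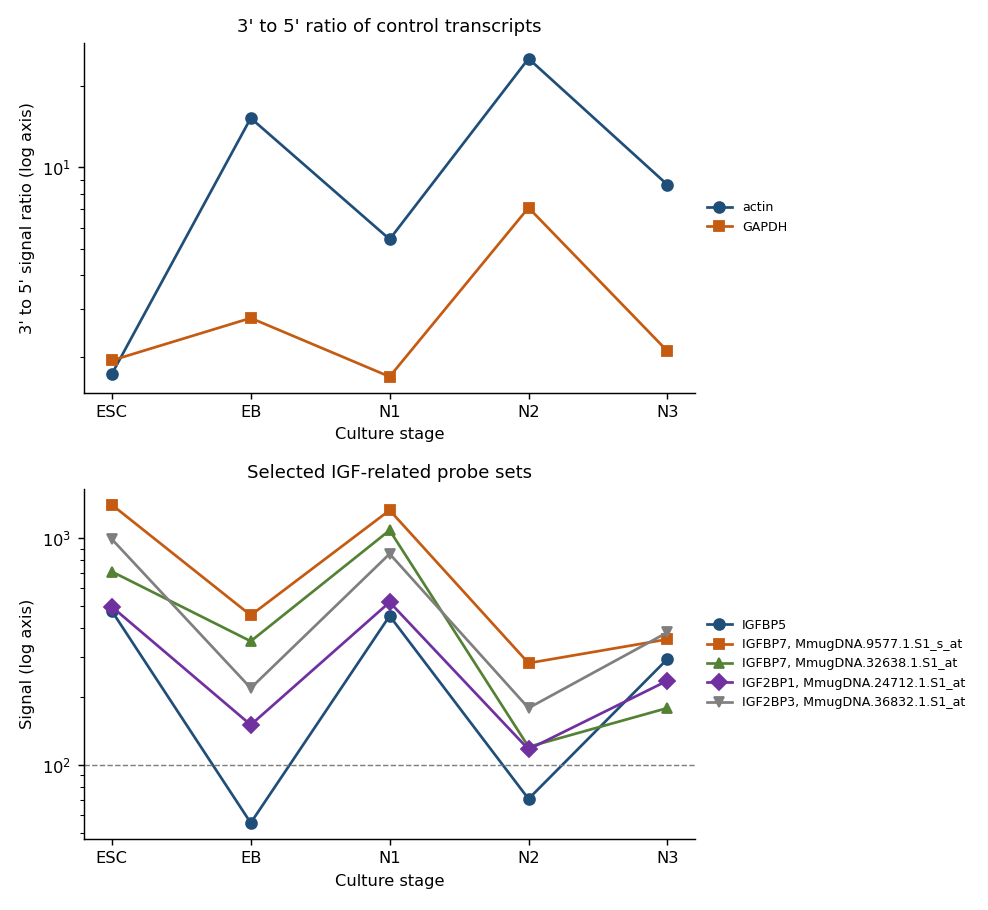
Upper panel, 3' to 5' signal ratio of the actin and GAPDH controls (log axis) at the 5 stages. Lower panel, signal (log axis) of IGFBP5 and of selected probe sets of IGFBP7, IGF2BP1 and IGF2BP3, chosen after their values were seen, with the dashed line at the floor. Actin peaked in EB (15.2) and N2 (25.2), where IGFBP5 was 55.4 and 70.7.

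Genes that carry the signal inside the cell were mostly within 2-fold between stages. Of 17 listed with a probe set, 16 were measured, and in EB against ESC 4 were higher and 1 lower, beside 12.1% and 11.8% of all measured genes and with a median log2 ratio of 0.38. Those higher were PIK3R1 (6.18-fold) and PIK3R3 (2.91-fold), regulatory subunits of phosphoinositide 3-kinase, the S6 kinase gene RPS6KB1 (3.05-fold) and the adaptor gene IRS2 (2.09-fold). GRB14, an adaptor that restrains insulin receptor signalling, was 3.48-fold lower. PIK3R3 had 133 at ESC, 388 at EB, 1437 at N1, 2928 at N2 and 2881 at N3. It was 3.71-fold higher in N1 than in EB and 2.04-fold higher in N2 than in N1, the same steps at which IGF1 was higher. Among dimmer probe sets, both further ones of RPS6KB1 were short of 2-fold (1802 in EB and 1239 in ESC, 1812 in EB and 966 in ESC), so that call rests on 1 of 3. For PIK3R1, MmuSTS.3385.1.S1_at (291 in EB and 50.7 in ESC) and MmugDNA.31087.1.S1_at (207 in EB and 42.6 in ESC) also crossed the floor, and the last stayed below it in both. A dimmer PIK3R3 probe set, MmugDNA.1587.1.S1_at, had 141 at ESC, 146 at EB, 276 at N1, 376 at N2 and 387 at N3. The third PIK3R3 probe set was below the floor throughout. In N1 against EB, 2 of the 16 were higher (PIK3R3 and GRB14, the adaptor by 2.25-fold), beside 5.18% of all genes. In N2 against N1, 1 was higher (PIK3R3), beside 5.07%, and in N3 against N2, 1 was higher (the kinase gene GSK3B, 2.27-fold), beside 4.78%. None of the 16 was 2-fold lower at these steps, beside 2.2%, 6.53% and 2.2%. For N3 against ESC, 4 were higher (PIK3R3, PIK3R1, RPS6KB1 and, at 2.2-fold, the exchange factor gene SOS1), beside 17.2%, and 1, the transcription factor gene FOXO1 (2.89-fold), was lower, beside 16.5%.

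A further list of 16 genes held IGF carriers, proteases and RNA regulators, with some others such as the growth hormone receptor gene GHR. Of these, 15 were measured in EB against ESC, with 3 higher and 2 lower (median -0.26), beside 12.1% and 11.8% of all measured genes. ADAM12, a protease that cuts IGFBP3 and IGFBP5, was at least 19.1-fold higher in EB, with 1905 in EB and 78.4 in ESC, and its dimmer probe sets also crossed the floor (455 in EB and 60.9 in ESC, 131 in EB and 3.66 in ESC). The cell-surface proteoglycan gene GPC3 was 3.24-fold higher and PLAG1, a transcription factor that activates IGF2, 3.23-fold higher, while IGF2BP1 (3.31-fold) and HMGA1 (2.13-fold) were lower. PAPPA2, a protease of IGFBP5, had 159 at ESC, 122 at EB, 179 at N1, 819 at N2 and 1030 at N3. It was 4.58-fold higher in N2 than in N1, and STC1, an inhibitor of PAPPA proteases, was highest in N3 at 2341, against 783 in ESC. The 4 dimmer PAPPA2 probe sets did not all follow: MmugDNA.34121.1.S1_at passed the floor in N2 (235) and N3 (408) alone, MmugDNA.34926.1.S1_at in EB (170) alone, and the others on no array. LIN28B, which binds RNA and blocks let-7 maturation, had 6997 at ESC, 9485 at EB, 5393 at N1, 3968 at N2 and 1402 at N3. Its other probe set, MmunewRS.241.1.S1_at, had 412 at ESC, 85.6 at EB, 241 at N1, 88.8 at N2 and 68.1 at N3, so the pair differed in direction between EB and ESC and were both lower in N3 than in ESC. The second HMGA1 probe set was lower in EB too (114 in EB and 1607 in ESC), the second GPC3 probe set was below the floor throughout, and that of STC1 was also highest in N3 (421). Over the whole culture, N3 against ESC, 6 of 16 were higher (among them ADAM12, PAPPA2 and PLAG1), beside 17.2% of all genes, and 4 lower (among them HMGA1 and LIN28B), beside 16.5%, with a median log2 ratio of 0.34.

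IGF2 lies beside the imprinted transcript H19 in the RefSeq rhesus gene order, with the microRNA gene MIR675 between them. The brightest H19 probe set had 415 at ESC, 52100 at EB, 41442 at N1, 51114 at N2 and 42865 at N3. The other H19 probe sets were lower in N2 than in N1, as IGF2 was. MmugDNA.16224.1.S1_s_at had 526 at ESC, 14246 at EB, 13150 at N1, 6769 at N2 and 8239 at N3. The dimmest had 36.7 at ESC, 1724 at EB, 2573 at N1, 337 at N2 and 481 at N3. Of the 10 imprinted genes listed with a probe set, 7 were higher in EB than in ESC and 0 lower, beside 12.1% and 11.8% of all measured genes and with a median log2 ratio of 1.16. Among them were DLK1 (65.5-fold), PEG3 (12.2-fold) and PLAGL1 (9.86-fold). H19 and DLK1 were already known to be high here when the list was written. IGFBP2 and IGFBP5 are direct neighbours in the same gene order, and so are IGFBP3 and IGFBP1. In N2 against N1 the ratio of IGFBP2 was 1.15-fold, whereas IGFBP5 was at least 4.54-fold lower. At the other steps IGFBP2 and IGFBP5 went the same way. Their log2 ratios were -2.35 and -2.26 in EB against ESC, and 0.92 and 2.18 in N1 against EB. In N3 against N2 they were 1.46 and 1.55. Each of these IGFBP5 ratios is a bound. In EB against ESC, IGFBP3 was 7.61-fold higher and IGFBP1 at least 1.27-fold higher, with 127 in EB and 58.5 in ESC. The sizes of these differences cannot be compared, because the IGFBP1 ratio is a bound.

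Markers of other cell types differed between the same stages. The summed signal of 10 endoderm and liver genes was 2604 at ESC, 76680 at EB, 68861 at N1, 20963 at N2 and 4710 at N3. The brightest in EB were FGB (26337), APOA1 (20624) and FGG (12776). In EB against ESC, 8 of the 10 were higher and 0 lower, beside 12.1% and 11.8% of all genes. AFP went the other way, short of 2-fold, with 602 in EB and 993 in ESC. Like that sum, IGF2, IGFBP3, IGFBP4 and the brightest IGFBP7 probe set were highest in EB or N1. Unlike that sum, IGF2 was higher in N3 than in N2 (1061 and 697), as was IGFBP4 (2174 and 1207). IGFBP3 stayed at 8766 in N3. For 8 endothelial genes the sum was 3640 at ESC, 11847 at EB, 6667 at N1, 3656 at N2 and 1954 at N3, with KDR, VWF and FLT1 below the floor throughout. TEK alone made up 3074 of the ESC sum and 8718 of the EB sum. The sum of 9 trophoblast genes was 3442 at ESC, 16267 at EB, 7353 at N1, 4036 at N2 and 1791 at N3, with GCM1 and CYP19A1 below the floor. In EB against ESC, 3 of the 6 trophoblast genes measured were higher (HAND1, CDX2 and GATA3) and 2 lower (TFAP2C and KRT7), beside 12.1% and 11.8% of all genes. The 9 mesenchyme genes went both ways in EB against ESC, with 3 higher (LUM, DCN and FBN1), 4 lower (THY1, TAGLN, COL3A1 and COL1A2) beside the same shares, and a median log2 ratio of -0.90. LUM had 17556 in EB and 46.1 in ESC, while TAGLN had 4666 in EB and 35873 in ESC. The mesenchyme sum was 85674 at ESC, 56379 at EB, 64683 at N1, 91522 at N2 and 105131 at N3. Skeletal muscle genes, 11 in number with MYF5 and MYF6 below the floor, summed to 14667 at ESC, 14648 at EB, 10738 at N1, 16372 at N2 and 56163 at N3. ACTC1 alone made up 10684 of the ESC sum and 20361 of the N3 sum. The 6 neural progenitor genes summed to 24936 at ESC, 5529 at EB, 7521 at N1, 24205 at N2 and 30915 at N3. SOX2, also a pluripotency gene, made up 19763 of the ESC sum, and the genes differed in profile, with PAX6 lowest in N1 and HES5 and DLL1 lowest in ESC. The part of these cell types, and of mouse fibroblast RNA in the ESC sample, in the IGF values was not tested.

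For the 6 genes that spanned 4-fold or more, likeness was taken as the root mean square difference between log2 profiles centred on their means, over the 5 arrays and 9773 other genes at 200 or more on some array. With so few arrays, close matches are easily found, and the measure is a description only. IGF1 lay closest to PIK3R3 (0.31), then SHOX2 (0.38) and TFAP2B (0.40). IGF2 lay closest to RSPO2 (0.25), HOXB6 (0.33) and CLDN1 (0.38). Nearest to IGFBP2 were ECRG4 (0.26), SNCB (0.27) and SYT6 (0.27), and nearest to IGFBP3 were KRT18 (0.16), SAYSD1 (0.18) and SEC22B (0.19). IGFBP5 had SFXN1 (0.25), BTBD1 (0.28) and TGS1 (0.29) closest, and IGFBP6 had HAS3 (0.13), LOC701346 (0.18) and SERPINB6 (0.20). Among the 10 genes themselves, the closest pairs were IGFBP4 with IGFBP7 (0.40) and IGF2 with IGFBP3 (0.45).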

How the data were processed

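Intensities on a linear scale were deposited by the authors, with GCOS 1.0 named per the submitters' processing notes. The algorithm is not given in the sources used here. The 2% trimmed mean over probe sets other than the 99 controls was 198.8 to 199.1 as deposited, so each array was rescaled by 2.512 to 2.515 to reach 500, then floored at 100 and log2 transformed (Python 3.11.15, numpy 2.4.6, pandas 2.3.3). The brightest negative control reached 87.3. Symbols came from GEO's platform table, an older annotation, and probe sets with exactly 1 symbol were used. A gene is its probe set of highest mean log2 signal, measured if 1 of the arrays compared was at or above the floor. All 11 symbols matched RefSeq by Entrez identifier, and RefSeq's T2T-MMU8v2.0 assembly gave gene order only.

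The genes and lists were chosen with earlier results of these data known. Named are the IGF genes, list members at 2-fold or more (up to 6 per comparison, fewer where a list is only summarised), other probe sets of some of them, and the 3 nearest profiles of each gene spanning 4-fold. Label markers, and profiles singled out for alternating, were chosen after their values were seen. The calculation was tested on simulated data with 4-fold changes planted in bright genes and little noise, which does not bear on calls near the floor. Alternatives were quantile, equal-median and hybridisation-control scaling (27 controls), floors of 50 and 200, log2(value + 1) without a floor, a gene's median probe set, and omission of cross-binding probe sets. The number of arrays limits the precision.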

Additional observations from a re-analysis of the deposited data

How the results depend on the processing

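Of 397 log2 ratios of the 10 genes recomputed under the 8 alternatives, 357 moved by less than the spread between probe sets of a gene. Another 39 moved by more, and 1 already at 2-fold or more reversed. Changes of sign in ratios short of 2-fold were not counted as reversals. IGF1R in N1 against EB was such a case, at -0.72 and at 0.40 with the median of its probe sets. Omission of cross-binding probe sets could not move its 50 ratios, because no such probe set stands for these genes. The other floors bear mainly on ratios with a low signal. The reversal was IGFBP7 in EB against ESC, at -1.32 with the median of its probe sets, where the brightest gave 1.14. That setting left 3 genes higher and 5 lower in EB against ESC (5 and 3 with the brightest) and 0 higher in N2 against N1 (against 1), where IGF1 stood at 0.56 because its pair of probe sets below the floor entered the median. Scaling to hybridisation controls gave 4 higher in N1 against EB (against 2), and 0 higher and 5 lower in N2 against N1 (against 1 and 3). It moved the median of all genes to 0.41 in N1 against EB, -0.57 in N2 against N1, 0.17 in N3 against N2, 0.06 in EB against ESC and 0.04 in N3 against ESC. IGF1 in N2 against N1 was then 0.61, still above that median. Equal medians gave 1 lower in N1 against EB and 1 lower in N3 against N2 (against 0 each), with the median of all genes at -0.37 and -0.13, and at 0.41 in EB against ESC. A floor of 200 left 1 higher in N3 against N2 (against 2), with IGFBP5 at 0.55. The share of higher among all genes past 2-fold was 50.8% in EB against ESC (80% with equal medians). In N1 against EB it was 70.2% (25.4% with equal medians, 52.1% after quantile normalisation, 95.2% with hybridisation controls), in N2 against N1 43.7% (54.4% with equal medians, 6.85% with hybridisation controls), in N3 against N2 68.5% (54.8% with equal medians, 86.4% with hybridisation controls), and in N3 against ESC 51.1% (63.6% with hybridisation controls). No paired analysis was possible because each stage has 1 array. Signals below the floor limit IGFBP5 in EB and N2, IGFBP6 in EB and both ligands in ESC, and ratios with these values are bounds. IGFBP6 was above the floor but close to it in N1 (189), N2 (131) and N3 (149).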
